A study of Apis mellifera with 6 samples.

Results

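In the honey bee (Apis mellifera) midgut, 100 of the 10041 listed genes carried a large part of the reads counted in listed genes. Their mean share was 49.4% in the controls and 44.6% after halofuginone. These genes, 0.996% of those listed, are described here as the most abundant midgut transcripts. They were chosen from the measured values in 3 steps. First, 24 genes were set aside by symbol (heat shock and ribosomal proteins, cytochromes P450, glutathione transferases, antioxidant enzymes, Arp1 and a pair of small heat shock genes). Next, 346 more genes were set aside because the lowest library of one group was at least 1.5 times the highest library of the other. Of the 9671 genes left, the 100 with the highest mean in the control libraries were taken as members. The control values therefore chose the members and the separation of the groups removed candidates. For this reason the shares and fold changes of the members are given as a description, with no test.

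Adult bees were collected at the landing board of outbred colonies, and all bees of an experiment came from the same colony. For 24 h they were fed sucrose solution with DMSO at 0.5%, to which 200 µM halofuginone was added for the treated group, so both groups received the vehicle. Halofuginone is an inhibitor of prolyl-tRNA synthetase and served in the study as an activator of the integrated stress response. Poly(A) RNA was sequenced from single midguts, with 3 control libraries (Control 1 to 3) and 3 halofuginone libraries (Halofuginone 2 to 4).

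The insect midgut is the site of digestion and absorption. Its epithelium secretes large amounts of digestive enzymes and of proteins of the peritrophic matrix, and few genes make up much of its RNA. Alpha-glucosidases split sucrose and other sugars of nectar into units that can be absorbed. Translation factors, mitochondrial carriers and energy-buffering enzymes are abundant in most tissues with high protein output.

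Values are read counts divided by a size factor per library, called normalised counts below, and a share is the percent of a library's listed reads. Libraries held 23305398 to 26278866 reads over the listed genes. The lowest count of any member in any library was 4110 reads, so counting error was small against the spread between bees. A share counts reads and not molecules, because longer transcripts give more reads, so the order of the genes below is an order by reads. Markers fixed by symbol for fat body, hypopharyngeal gland, muscle, nervous tissue and haemocytes held 0.0281% to 0.0439% of a library's reads in sum. Only 1 of 8 hypopharyngeal gland symbols and 2 of 7 nervous tissue symbols were among the listed genes, and haemocytes had PPO alone. For venom gland 0 of 4 symbols were listed, so that tissue was not measured. The sum therefore cannot show how much of these tissues was present. No midgut marker could be identified by symbol with certainty, so the tissue label itself was not checked against one. Of the 100 members, 87 carry a LOC identifier without a gene name and are given by that identifier alone. The other 13 have a gene symbol, and their roles are stated with their values.

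The members were very unequal among themselves. LOC724199, the first member, had more than 100 times the control mean of the hundredth. The first 5 members, LOC724199, LOC100579019, LOC724874, LOC725725 and the alpha-glucosidase gene Hbg2, held 22.0% of the control reads. Only 12 members exceeded 1% of the control reads each, and 66 members were under 0.2% each. At the lower edge the ranking was close. LOC100577641, at rank 100, had a control mean of 22858 ± 1460 normalised counts (SD, n = 3), and LOC409650, the first gene not included, had 22815 ± 3382 (SD, n = 3). LOC410167, LOC552073, LOC552272 and LOC726672 at ranks 96 to 99 lay between 23569 and 22935, and LOC411989, LOC409171, LOC409854 and LOC408446 next in order between 22696 and 21881. Of the genes set aside, 14 would otherwise have ranked among the first 100, 9 of them by symbol and 5 by separation. The most abundant of the latter was LOC726855, seventh of all genes, with 514257, 449289 and 442691 normalised counts in the controls and 220897, 130174 and 257108 after halofuginone. The member nearest to the separation limit was CSP3 with a ratio of 1.43, and the nearest abundant gene beyond it was LOC408421 with 1.58.

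The members took a smaller share of every treated library than of each control. The 100 members held 49.0% of the reads in Control 1, 49.6% in Control 2 and 49.6% in Control 3. They held 45.1% in Halofuginone 2, 40.5% in Halofuginone 3 and 48.3% in Halofuginone 4. The controls lay within 1 percentage point of each other, Halofuginone 3 was the lowest, and Halofuginone 4 came close to the controls. The means were 49.4% ± 0.347 (SD, n = 3) and 44.6% ± 3.90 (SD, n = 3), a difference of −4.76 percentage points. Without Halofuginone 3 the same members differed by −2.71 points, and by −2.26 points when the other libraries were compared after that library was left out of the whole choice of members. In bulk tissue, fewer cells of a type and less RNA per cell cannot be told apart, and a share also depends on the reads of all other genes.

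**Figure D1:**
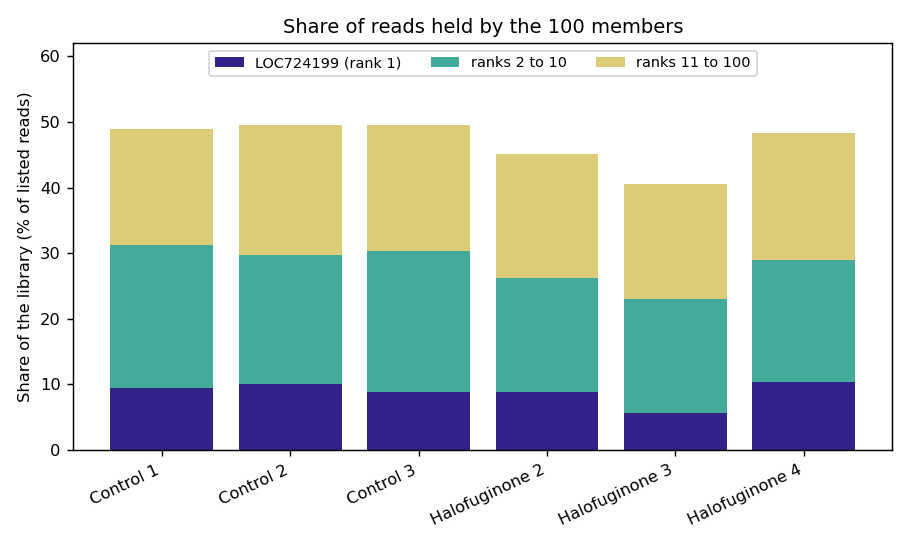
Stacked bars give the percent of listed reads held by LOC724199, by members 2 to 10 and by members 11 to 100 in each of the 6 libraries. The whole bar is highest in the controls (49.0% to 49.6%) and lowest in Halofuginone 3 (40.5%), and most of the difference in height lies in the first 10 members.

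Most of this difference sat in the first 10 members. They held 31.2%, 29.7% and 30.3% of the reads in the controls and 26.2%, 23.0% and 29.0% in Halofuginone 2, 3 and 4, with no overlap between groups and a difference of −4.36 points. Members 11 to 100 held 18.9% ± 1.12 (SD, n = 3) in the controls and 18.5% ± 0.915 (SD, n = 3) after halofuginone, and these groups overlapped. Counted one by one, 53 members had a lower mean share after halofuginone, by −7.66 points in sum, and 47 had a higher one, by 2.90 points in sum. The 5 largest losses of share added up to −4.32 points and the 5 largest gains to 1.52 points. The genes just below the members took a larger share instead. The next 100 genes in rank went from 6.79% ± 0.260 (SD, n = 3) to 7.48% ± 0.143 (SD, n = 3) with no overlap, and all genes further down from 37.3% ± 0.196 to 40.5% ± 3.12 (SD, n = 3), with overlap.

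Because members are the highest genes of the controls, the ranking was repeated on pairs of controls. The control not used in the ranking was compared with the halofuginone libraries. The drop for separation still used all 6 libraries, so this part of the choice was not held out. The held-out control held 48.6%, 49.3% and 49.3% for Control 1, 2 and 3, against halofuginone means that were lower by −4.14, −5.08 and −4.70 points. When the members were instead ranked by the halofuginone libraries, the difference was −3.43 points, and when ranked by all 6 libraries, −4.08 points.

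To compare the libraries without favouring either group, each library was also given its own most abundant genes among all 10041. A library's own 100 most abundant genes held 52.7%, 52.3% and 52.2% of its reads in the controls and 47.8%, 43.8% and 51.5% after halofuginone. Halofuginone 3 was again the lowest, and the groups did not overlap. The difference was −4.68 points (exact permutation test, two-sided, p = 0.1, Benjamini-Hochberg adjusted over 3 measures 0.15), and 0.1 is the smallest p that 3 against 3 libraries allow. It was −2.72 points without Halofuginone 3. The own 10 most abundant genes held 32.2%, 30.2% and 31.1% in the controls and 26.3%, 23.2% and 29.3% after halofuginone (difference −4.87 points, exact permutation test, two-sided, p = 0.1, adjusted 0.15). The inverse Simpson number, which counts how many equally abundant genes would give the same concentration of reads, was 60.6, 60.8 and 66.4 in the controls and 80.3, 122 and 61.3 after halofuginone. Here Halofuginone 4 lay within the controls, and the difference was 25.2 genes (exact permutation test, two-sided, p = 0.2, adjusted 0.2). It was 8.18 genes without Halofuginone 3 and 38.4 genes without Halofuginone 4. None of the 3 measures had an adjusted p under 0.05, and with 3 against 3 libraries none could. The number of genes needed to reach 50 percent of the reads was 75, 80 and 80 in the controls and 122, 168 and 87 after halofuginone.

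LOC724199, the gene with the most reads in every library, set much of the difference between the halofuginone libraries. It held 9.44%, 10.1% and 8.89% of the reads in the controls and 8.82%, 5.65% and 10.4% in Halofuginone 2, 3 and 4. Halofuginone 3 was low and Halofuginone 4 was above every control, so the groups overlapped. Against the control mean the gene differed by −0.666, −3.84 and 0.929 points in the 3 halofuginone libraries, beside −4.30, −8.88 and −1.11 points for all members together. The members without LOC724199 still held 39.9% ± 0.699 (SD, n = 3) in the controls and 36.3% ± 1.5 (SD, n = 3) after halofuginone, with no overlap.

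LOC100579019, the next member by rank, had 4.10%, 2.99% and 3.44% of the reads in the controls and 2.03%, 2.95% and 2.50% after halofuginone. All halofuginone values lay below the lowest control, although Halofuginone 3 nearly reached it. LOC724874 (3.07%, 3.72% and 3.17% against 3.06%, 2.72% and 3.37%) overlapped. LOC725725 overlapped too, and stood at 4.14% in Control 1 against 2.22% and 2.20% in the other controls.

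Both alpha-glucosidase genes among the members with a gene name were in the first 6. Members with a LOC identifier alone were not checked for this role. AGLU2, which the gene table also calls Hbg1, had 627783, 752645 and 745032 normalised counts in the controls and 463341, 412524 and 386002 after halofuginone. Every halofuginone library was below every control, and the log2 fold change was −0.75 ± 0.41 (SE). Hbg2 had 546506, 645497 and 935502 in the controls and 615295, 678642 and 598976 after halofuginone. The treated libraries were close to each other and within the range of the controls, with a log2 fold change of −0.13 ± 0.47 (SE) that turned to 0.085 without Control 3. The pair together held 5.58% ± 0.948 (SD, n = 3) of control reads and 4.44% ± 0.697 (SD, n = 3) after halofuginone. Hbg3, a further alpha-glucosidase gene, was set aside by separation and was far less abundant, with 1244, 1706 and 1834 normalised counts in the controls and 544, 458 and 598 after halofuginone.

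**Figure D2:**
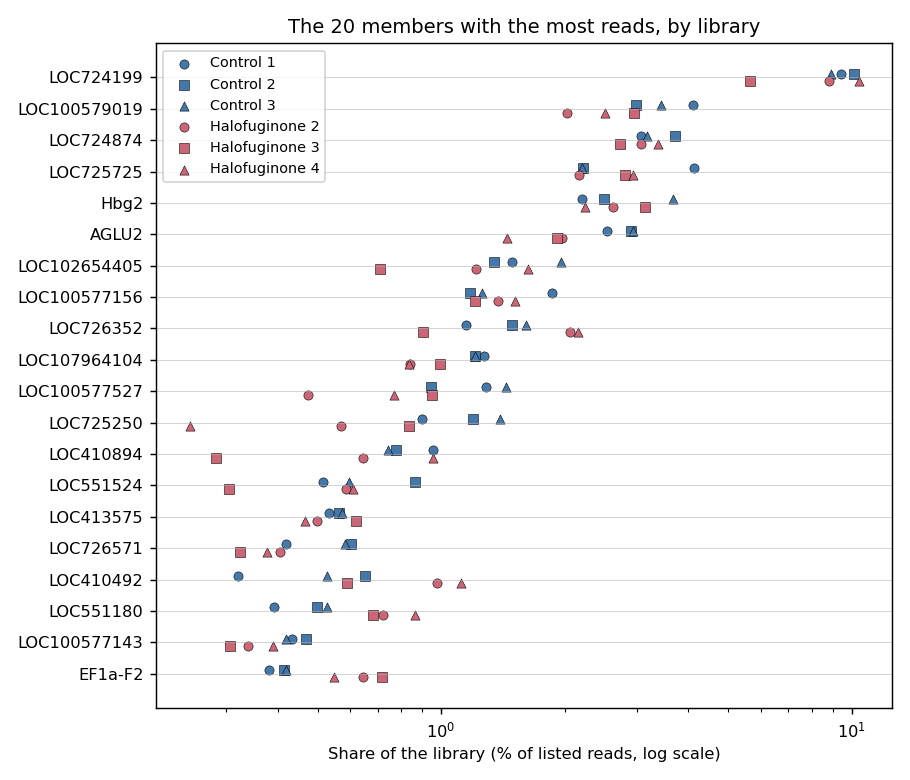
Each point is the percent of listed reads (log scale) that 1 library gave to 1 of the first 20 members, blue for controls and red for halofuginone. AGLU2 and LOC107964104 sit lower in all 3 treated libraries, EF1a-F2 and LOC551180 sit higher, and LOC724199 spans 5.65% to 10.4% within the treated group alone.

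Further down the first 20, LOC107964104 had the most uniform controls. Its values were 316390, 312701 and 307716 normalised counts in the controls and 197510, 214717 and 223923 after halofuginone, with no overlap (log2 fold change −0.56 ± 0.30, SE). LOC725250 had 222448, 310433 and 354507 in the controls and 133756, 180120 and 65225 after halofuginone, with no overlap and the lowest value in Halofuginone 4 (log2 fold change −1.32 ± 0.44, SE). LOC100577527 (319429, 245486 and 366060 against 111325, 205504 and 204851) and LOC726571 (104209, 156639 and 148519 against 95464, 69921 and 100519) were also lower without overlap. In contrast, LOC102654405, LOC100577156, LOC726352, LOC410894, LOC551524 and LOC413575 overlapped between groups. LOC100577143 was lower without overlap, with 107659, 121484 and 106729 against 79760, 66233 and 104010.

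Few of the first 20 were higher after halofuginone. EF1a-F2, elongation factor 1-alpha, which brings charged tRNAs to the ribosome, had 94309, 107351 and 106528 normalised counts in the controls and 151651, 154652 and 146382 after halofuginone. The groups were tight and did not overlap, and the log2 fold change was 0.56 ± 0.22 (SE). LOC551180 had 97108, 129430 and 134111 in the controls and 169935, 147018 and 230738 after halofuginone, also without overlap (0.59 ± 0.29, SE). LOC410492 (79470, 168898 and 134112 against 229319, 127063 and 299375) overlapped through Halofuginone 3, and its log2 fold change was 0.76 ± 0.44 (SE). Leaving out Control 1 gave 0.45, leaving out Halofuginone 4 gave 0.49, leaving out Halofuginone 3 gave 1.11, and the replicate number as a block gave 0.18.

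Over all members the median log2 fold change was −0.13, beside −0.010 over all listed genes and 0.039 over the next 100 genes in rank. It was −0.39 in the first 20 members, of which 16 were below 0, and −0.040 in members 21 to 100. In total 59 members were below 0 and 41 above. The range was −1.53 to 1.38 and only 4 members lay beyond 1 in size. The median of the members stood at −0.047 without Halofuginone 3. It was 0.048 when they were ranked by the halofuginone libraries, so its sign depended on which group ranked the genes. It was 0.021 when Control 1 was held out of the ranking and was then the only control compared. With Control 1 left out of both steps, the median of the members was −0.20. It was −0.0077 when they were ranked by all 6 libraries, −0.024 with 200 members, and −0.043 under library-total scaling, where the median of all genes was 0.080.

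The groups did not overlap in 28 members, 7 of them higher and 21 lower after halofuginone. Over all listed genes the groups did not overlap in 30.6%, in 15.9% with halofuginone higher and in 14.7% with halofuginone lower. Among the next 100 genes in rank there were 21 higher and 17 lower. The fit across all genes (limma, Benjamini-Hochberg adjusted p under 0.05) called 1 member lower and 0 members higher, beside 6.88% of all listed genes in either direction, 4.63% higher and 2.25% lower. At an unadjusted p under 0.05 there were 16 members, beside 23.7% of all listed genes, and DESeq2 called 3 higher and 18 lower, beside 13.9% of all listed genes. Nothing is read from these counts, since the choice of members removed the genes with the largest separation. The called member, LOC726175, is named after its values were seen. It had 22242, 28879 and 27220 normalised counts in the controls and 15724, 14880 and 14673 after halofuginone (log2 fold change −0.78), and its adjusted p ranged up to 0.135 over 16 alternatives, edgeR and DESeq2 among them, passing in 7. Without Control 2, Control 3 or any 1 halofuginone library it did not pass.

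The limma fit bears on how these large values are read. Its spread is drawn towards a trend on mean expression, and at the extreme of abundance this trend was steep. For the first 20 members the trend gave a median SD of 0.525 on the log2 scale, while their own median SD was 0.312. In AGLU2 the trend gave 0.744 against an own SD of 0.140, and in LOC724199 it gave 1.39 against 0.434. The trend SD was above the own SD in 16 of the first 20 members, and the standard errors printed for these are wider than their own replicates alone would give. In the other 4, LOC725250, LOC410894, LOC551524 and LOC410492, the trend SD was below the own SD and the printed errors are narrower. Over all members, the first 20 included, the trend SD was above the own SD in 48, so many later members also have narrower errors. In LOC409341 the trend gave 0.271 against an own SD of 1.58, and in LOC100578144 it gave 0.221 against 0.915. The errors printed for LOC409341 and LOC100578144 are therefore narrower than their own replicates alone would give.

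**Figure D3:**
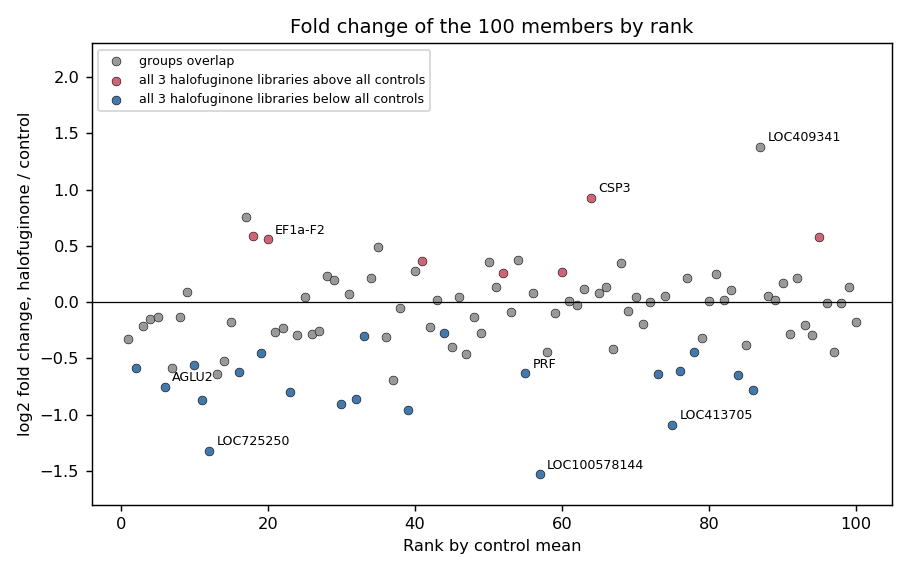
Each point is 1 member, with its rank by control mean on the x axis and its log2 fold change (halofuginone over control) on the y axis; colours mark whether the 3 treated libraries all lie above, all lie below or overlap the controls. Below 0 lie 16 of the first 20 members, and 59 of all 100.

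The members with a gene name, read by role, differed in direction. Of the named translation factors, 4 genes were in the files and EF1a-F2 was the only member. The others were Eif4g (7317, 6411 and 6685 normalised counts against 7740, 6496 and 7702), Eif3h (2750, 2176 and 2250 against 2892, 3269 and 3274) and Ef-1a-f1 (569, 1260 and 1118 against 1311, 1739 and 1347). All treated libraries lay above all controls in Eif3h and Ef-1a-f1, and Eif4g overlapped. These 3 genes lie far below the members in abundance.

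Of the fixed list of proton pump and ATP synthase symbols, ATP5G2 and Vha16 were in the files, and only ATP5G2 was a member. Ant and Argk, members with a gene name that also serve energy supply, are given beside them. ATP5G2, subunit c of the mitochondrial ATP synthase, had 25208, 28318 and 27718 normalised counts in the controls and 26767, 24385 and 30766 after halofuginone, with a log2 fold change of 0.0071 ± 0.16 (SE), which is −0.011 under TMM scaling. Ant, the carrier that exchanges ADP for ATP across the inner mitochondrial membrane, had 24029, 34163 and 35383 against 34629, 30750 and 34522. Argk, arginine kinase, which buffers ATP in insect tissues, had 21213, 43834 and 37277 against 45445, 28044 and 59726. The groups overlapped in ATP5G2, Ant and Argk, and Control 1 was the lowest control in each. Vha16, a proton pump subunit that was not a member, had 7898, 7558 and 7589 normalised counts in the controls and 3979, 3965 and 4276 after halofuginone, with no overlap.

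Of the remaining members with a gene name, CSP3 was higher and PRF was lower in all treated libraries. CSP3, a chemosensory protein of the family of small soluble carriers, had 36269, 33723 and 23484 normalised counts in the controls and 69945, 54441 and 51903 after halofuginone (log2 fold change 0.93 ± 0.23, SE). PRF, profilin, which binds actin monomers, had 30572, 36510 and 34288 in the controls and 20028, 18337 and 28023 after halofuginone (−0.63 ± 0.20, SE). Both pairs of groups were separate, although Halofuginone 4 came near the controls in PRF.

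The regulators and the redox genes overlapped between groups. Emc, in Drosophila an inhibitor of basic helix-loop-helix transcription factors, had 38017, 28092 and 27915 normalised counts in the controls and 31030, 57256 and 17199 after halofuginone. It was highest in Halofuginone 3 and lowest in Halofuginone 4, and its log2 fold change of 0.012 was −0.0058 under TMM scaling and −0.42 without Halofuginone 3. Mblk-1, a transcription factor first described in the honey bee brain, had 88211, 117623 and 101127 against 96562, 68126 and 91337. Tpx-4, a peroxide-reducing thioredoxin peroxidase, had 19610, 23360 and 28212 against 23685, 14741 and 20275. Cryl1, named for lambda-crystallin, had 32880, 27145 and 28841 against 16998, 22926 and 27918, where only Halofuginone 4 reached into the controls. Ancr-1, a non-coding RNA of the nucleus, had 18622, 31653 and 30224 against 21767, 32892 and 25991, and it is the single non-coding gene among the members with a name.

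**Figure D4:**
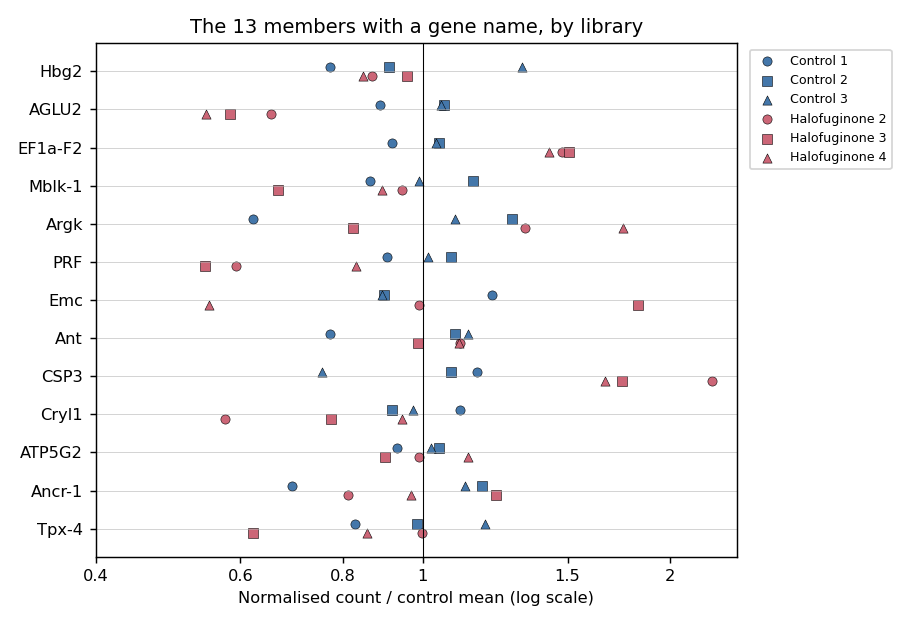
Each point is the normalised count of 1 of the 13 members with a gene name in 1 library, divided by that gene's control mean (log scale), blue for controls and red for halofuginone. CSP3 and EF1a-F2 lie to the right of 1 and AGLU2 and PRF to the left in all 3 treated libraries, while Emc spreads widest within the treated group.

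None of the 5 members with the lowest log2 fold changes, LOC725250 above included, overlapped between groups. LOC100578144 had the lowest log2 fold change, −1.53 ± 0.57 (SE), with 49938, 26476 and 23529 normalised counts in the controls and 14169, 20548 and 4434 after halofuginone. The groups did not overlap, and the value was −0.88 without Halofuginone 4. LOC413705 (27135, 29523 and 28054 against 12399, 9545 and 19756) and LOC726309 (44922, 43950 and 41058 against 20939, 16109 and 32728) were tight in the controls and lower in each treated library, with log2 fold changes of −1.09 ± 0.26 and −0.96 ± 0.26 (SE). LOC107964964 had 76708, 49788 and 56371 in the controls and 26218, 28498 and 44083 after halofuginone, again without overlap (−0.90 ± 0.27, SE). LOC408526 had 20379, 24488 and 26249 in the controls and 36474, 31283 and 37955 after halofuginone, and it was higher without overlap (0.58 ± 0.17, SE). LOC412602, LOC726060 and LOC102655329 were the other members whose treated libraries all lay above the controls.

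LOC409341 had the highest log2 fold change of the members, 1.38 ± 0.98 (SE), but not in every treated library. It had 14171, 35309 and 28002 normalised counts in the controls, and 97384, 12105 and 209485 in Halofuginone 2, 3 and 4. Halofuginone 3 was below every control, while Halofuginone 4 was 17.3 times as high as Halofuginone 3. Its log2 fold change was 2.57 without Halofuginone 3 and 0.51 without Halofuginone 4. LOC413645 had the largest spread of the treated group, with 54971, 70829 and 33237 in the controls and 96325, 10051 and 207890 after halofuginone, and its log2 fold change of 0.21 turned to −0.090 without Control 3, −0.15 without Halofuginone 2 and −0.70 without Halofuginone 4. LOC724211 had the largest spread of the control group, with 9414, 31604 and 38158 against 41896, 10025 and 12226.

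By the median SD, bees of 1 group differed more in the members than in other genes, but in the controls fewer members than genes overall spanned at least 2-fold. The median SD on the log2 scale was 0.262 in the controls and 0.303 after halofuginone for the members, 0.21 and 0.20 for the next 100 genes in rank, and 0.224 and 0.226 for all listed genes. Within the treated group 28 members spanned at least 2-fold, beside 12 of those next 100 and 18.4% of all genes. Within the controls 14 members did, beside 9 of those next 100 and 16.4% of all genes. Among the treated libraries Halofuginone 3 was lowest in 59 members and Halofuginone 4 highest in 56. The next 100 genes in rank were much alike, with 57 and 52, and the 800 genes after these had 51.1% and 50.1%. Over all genes the shares were 36.4% and 32.6%. In the controls, Control 1 was lowest in 58 members, beside 67 of the next 100 genes in rank, 55.8% of the 800 genes after these and 39.2% of all genes.

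A group of 10 members, chosen after their values were seen, was at least 2-fold higher in both Halofuginone 2 and Halofuginone 4 than in Halofuginone 3. They were LOC726352, LOC410894, LOC551524, LOC408320, LOC413645, LOC552600, LOC724899, LOC102653599, LOC408474 and LOC409341. Genes at least 2-fold lower in Halofuginone 3 than in both others numbered 4 among the next 100 in rank and made up 2.66% of all genes. In 0 members was Halofuginone 3 at least 2-fold higher than both others, beside 2 of the next 100 genes and 316 of all 10041. Together the 10 held 3.55%, 4.63% and 4.09% of the reads in the controls and 5.34%, 2.08% and 6.41% in Halofuginone 2, 3 and 4, so Halofuginone 3 was below and the other treated libraries were above every control. LOC102653599 overlaps a less abundant small heat shock gene in the gene table, and LOC408474 overlaps LOC410539, so reads of these pairs may not be fully separated. The troponin genes of the muscle list, of which 7 of 10 listed symbols were in the files, summed to 5340, 8916 and 7466 normalised counts in the controls and 7083, 4750 and 8532 after halofuginone. Their sum was lowest in the same libraries, Control 1 and Halofuginone 3, as most members, but not every troponin gene was. Among the treated libraries TpnCI (1488, 1636 and 1883) was lowest in Halofuginone 2 and TpnCIIIb in Halofuginone 4. Among the controls TpnCIIIa was lowest in Control 3. The fat body and nervous tissue sums were also lowest in Control 1 and Halofuginone 3. Mrjp7 and PPO were lowest in Halofuginone 4 among the treated libraries. The part of these tissues in the result was not tested.

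**Figure D5:**
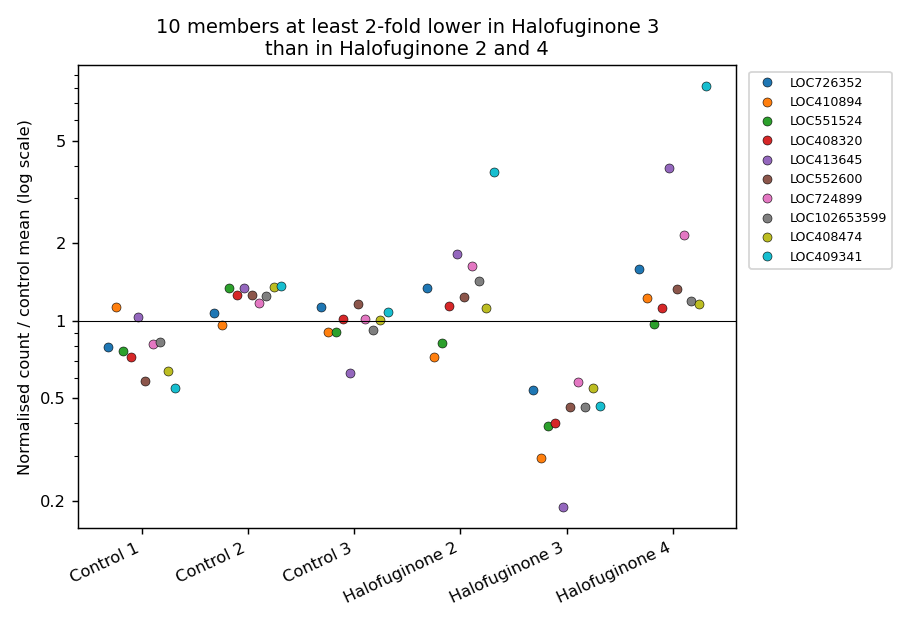
Each point is the normalised count of 1 of 10 members in 1 library divided by that gene's control mean (log scale), with 1 colour per gene; the 10 were picked because Halofuginone 3 was low. All 10 lie under 1 in Halofuginone 3, and LOC409341 and LOC413645 lie far above 1 in Halofuginone 4.

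Among the genes kept by the rule, the set of abundant genes was largely shared between the conditions. The 346 genes set aside for separation could neither enter nor leave, which favours overlap, and 5 of them would have ranked by the control mean. Ranking the kept genes by the halofuginone mean gave 100 genes of which 81 were members, so 19 left and 19 entered, 81% of either list being shared. Of the 100 most abundant kept genes of each library, 82, 94 and 94 were members in the controls, whose values chose them, and 81, 75 and 80 after halofuginone. Some entries rested on 1 or 2 midguts. LOC724386 had 13376, 20576 and 10031 normalised counts in the controls and 6506, 2971 and 108222 after halofuginone, and so entered through Halofuginone 4 alone. LOC409954 entered with 26569, 29082 and 37546 after halofuginone, all above its control values of 20034, 15205 and 15808.

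In the gene order of the RefSeq table the members were mostly scattered. Of 97 members that could be placed among 9187 listed genes, 2 pairs were direct neighbours, LOC408452 with LOC725621 and LOC551684 with LOC551651. The latter pair overlaps in the table, so its reads may not be fully separated. In total 32 members overlapped another listed gene, and in 6 of them the partner had more than 10 percent of the member's control mean.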

How the data were processed

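Poly(A) libraries from single midguts were sequenced with paired reads on an Illumina HiSeq, trimmed, mapped to Amel 4.5 and counted per gene by the authors, who compared groups with DESeq2. The submitters' processing notes name Trimmomatic 0.36, STAR, Subread and DESeq2. For strand in counting the sources used here give nothing. The sample titles gave the groups.

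The deposited values are a normalised signal: the authors scaled the read counts of each library by its own size factor (0.927 to 1.16). In every library 100% of the values were whole reads within a tolerance of 0.01, totals were 23305398 to 26278866 reads, and 6 to 15 genes per library were at 0. The lowest gene total was 61 reads, and 0 columns were left unused. Libraries of a group are separate midguts, so p-values measure the spread between these bees only.

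The members and lists were chosen with earlier results of these data known. Fold changes and SE come from limma 3.58.1 (R 4.3.3) with a mean trend on log2(normalised count + 1) over all 10041 genes, which understates changes of low genes. Each library's own shares were compared with exact permutation tests. edgeR 4.0.16 and DESeq2 1.42.0 served as alternatives on the recovered reads, beside TMM and library-total scaling, pseudocounts of 0.5 and 4, no trend, a mean of at least 100, other rankings and member numbers, leaving out each library and a replicate block. On simulated data with known changes the limma fit was tested first. The simulation gave every gene the same spread setting, so it cannot show how the fit behaves under the steep trend at high abundance. Genes named were the first 20 members, the 5 highest and 5 lowest log2 fold changes and the largest spread per group. Also named were members with a gene name, genes at the edges of the choice, genes of the symbol lists and neighbours in gene order. Others, among them LOC412602, LOC726060, LOC102655329, LOC724386 and LOC409954, were chosen after their values were seen. Names and gene order come from RefSeq's Amel_HAv3.1 table, another build than that of the reads, so no coordinates are printed. Gene lists by symbol for mitochondrion-encoded genes, iron storage, and actin and tubulin found 0 genes, and SPG11, found by the digestion prefix SP, was not used. The other steps ran in Python 3.11.15 (scipy 1.17.1, pandas 2.3.3, numpy 2.4.6, matplotlib 3.10.9).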

Additional observations from a re-analysis of the deposited data

How the results depend on the processing

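The lower share of the members kept its direction under every alternative run, with −3.43 to −5.73 points over other rankings, member numbers and drops, and −6.09 to −2.26 points when 1 library was left out (the smallest without Halofuginone 3). So did the own 100 (−6.59 to −2.72), own 10 (−6.39 to −3.35) and inverse Simpson measures (8.18 to 38.4 genes) when 1 library was left out. The median log2 fold change was 0.048 when members were ranked by the halofuginone libraries and −0.0077 when ranked by all 6 libraries. It was 0.021 with Control 1 held out of the ranking and then compared as the only control. With 200 members it was −0.024, under library-total scaling −0.043, and −0.20 to −0.047 when 1 library was left out. The number of members called was 4 with genes of a mean of at least 100 (fewer genes tested), 0 without the trend (22 at an unadjusted p under 0.05), 21 with DESeq2, 1 with edgeR, and 0 to 2 when 1 library was left out. Over all genes the calls were 691 with limma, 263 without the trend, 835 of 7477 with the mean filter, 677 with edgeR and 1400 with DESeq2. The cause of these differences was not tested. Library-total scaling moved the median of all genes by 0.090 and turned the sign of 5 members, and TMM that of 4, all with log2 fold changes under 0.1 in size. Of the named members' log2 fold changes under alternatives, 524 stayed within the spread between replicates and 8 did not. Staying within that spread did not exclude a turn of sign. LOC726352 went from 0.088 to −0.37 with the replicate block and LOC725725 from −0.15 to 0.13 without Control 1. Other named members turned as well.

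Numbers 2 and 3 occur in both groups. Same-numbered libraries did not deviate together (r = 0.071 and −0.033), so the number is not taken as a pairing. With a replicate block on these numbers the member share differed by −6.79 points, the median log2 fold change was −0.27, 0 members were called (24 at an unadjusted p under 0.05) and 3 genes in all, against 265 in the same 4 libraries without the block, an alternative chosen after seeing the data. The own 100 share differed by −6.44 points, the own 10 share by −5.88 points and the inverse Simpson number by 37.4 genes. The values were deposited in other pairs, Control 1 with Halofuginone 2, Control 2 with Halofuginone 3 and Control 3 with Halofuginone 4. Deviations from the group mean in these pairs had r = −0.178, −0.145 and −0.114, and no block on them was fitted. A planned description of member proteins and promoters was not run.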
